A study of Homo sapiens with 8 samples.

Results

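The γH2AX regions described here lie on chromosome 7 of the human build hg19, from 55 to 77 Mb, a span that runs from the proximal short arm across the centromere to band 7q11.23. A region was taken when its midpoint fell inside that span, and the choice used position alone. The span held 1996 of the 54434 regions in the 3 deposited peak lists: 705 of 18223 in the Pt-ttpy list, 814 of 26121 in the cisplatin list and 477 of 10090 in the untreated list. The cells were A2780, a human ovarian carcinoma line, in all groups. One group received Pt-ttpy, a platinum compound known as a ligand of G-quadruplexes (folded structures of guanine-rich DNA), one received cisplatin, a platinum drug that crosslinks DNA, and one was left untreated. Exposure lasted 96 hours, at the IC80 of the drug in question. The immunoprecipitated mark was γH2AX, the phosphorylated form of the histone variant H2AX. The labels tie both samples of a group to 1 list, so each value below is that of a single list without replicates and carries no p-value. The 2 input samples of untreated cells were not analysed here.

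γH2AX is placed on chromatin around DNA double-strand breaks by the damage-response kinases, and its mapping shows where that response is active. Human centromeres are built on alpha satellite, a tandem repeat that the hg19 assembly leaves largely as a gap. The sequence beside the gap mixes blocks of satellite with copies of sequence from elsewhere in the genome. Farther along the long arm, band 7q11.21 carries clusters of zinc finger genes, and 7q11.23 holds the blocks of duplicated sequence whose recombination causes the Williams-Beuren deletion. Regions were not assigned to genes, because the gene positions at hand were of another build than the lists. For the same reason no sequence is printed.

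The lists were not called on equal terms, and read totals are not in them, so the depth is unknown. Each deposited fold, a ratio over the background of the peak caller, went with 1 −log10 q throughout its list (183 distinct folds for Pt-ttpy, 186 for cisplatin and 181 for untreated). The folds are therefore relative to a background that is constant over a list, and rank regions within a list only. Region names in the Pt-ttpy and cisplatin lists mention untreated beside the drug, but no source used here says which control the calling had. Copy number and collapsed repeats at a position were not tested as a part of any result below. The names in the untreated list count to 18049, and 8848 of these numbers are missing from it. Between 145 and 177 of the missing numbers fall in the 55 to 77 Mb span by the position of their retained neighbours, beside the 457 numbers kept there. In the span 39 of the 477 untreated regions are pieces of 19 numbers, and 47 have a summit outside their own bounds. Over the whole list 1652 of the 10090 untreated regions are pieces of 763 numbers, and 2170 have such a summit. Neither treated list had a missing or a repeated number in the span.

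Most regions lay in a few blocks. When regions of any list within 100 kb of each other were joined, a distance chosen after the data were seen, 8 blocks of 5 or more regions held 1960 regions, or 98.2% of them. The lists were counted together, so 1 place can enter in each list. The block from 56886819 held only 2 regions in each list. Those from 72023063 and from 72870550 each held 1 Pt-ttpy and no untreated region. Regions were closely spaced: the next region of the same list began within 1 kb for 67.7% of Pt-ttpy, 68.9% of cisplatin and 61.3% of untreated regions on the short arm side, and for 67.8%, 68.3% and 65.9% on the long arm side. Neither the share in blocks nor this spacing was taken over the whole lists. The 2 dense blocks that touch the centromere gap held most. The block on the short arm side ran from 57547165 to 58054125 and held 251 Pt-ttpy, 278 cisplatin and 154 untreated regions. The block on the long arm side ran from 61054385 to 62046006 and held 380 Pt-ttpy, 440 cisplatin and 288 untreated regions. Between these blocks lay 3.00 Mb without a region in any list, at the centromere gap of the assembly. On the short arm side the last region ended 206 bp from the gap in the Pt-ttpy list, 206 bp in the cisplatin list and 217 bp in the untreated list. On the long arm side the first region began 56, 61 and 53 bp beyond the gap in the same order of lists. The calls thus ran up to both edges of the assembled sequence in every list. Beyond the block on the long arm side came 1.87 Mb without a region in any list, up to 63920365.

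**Figure D1:**
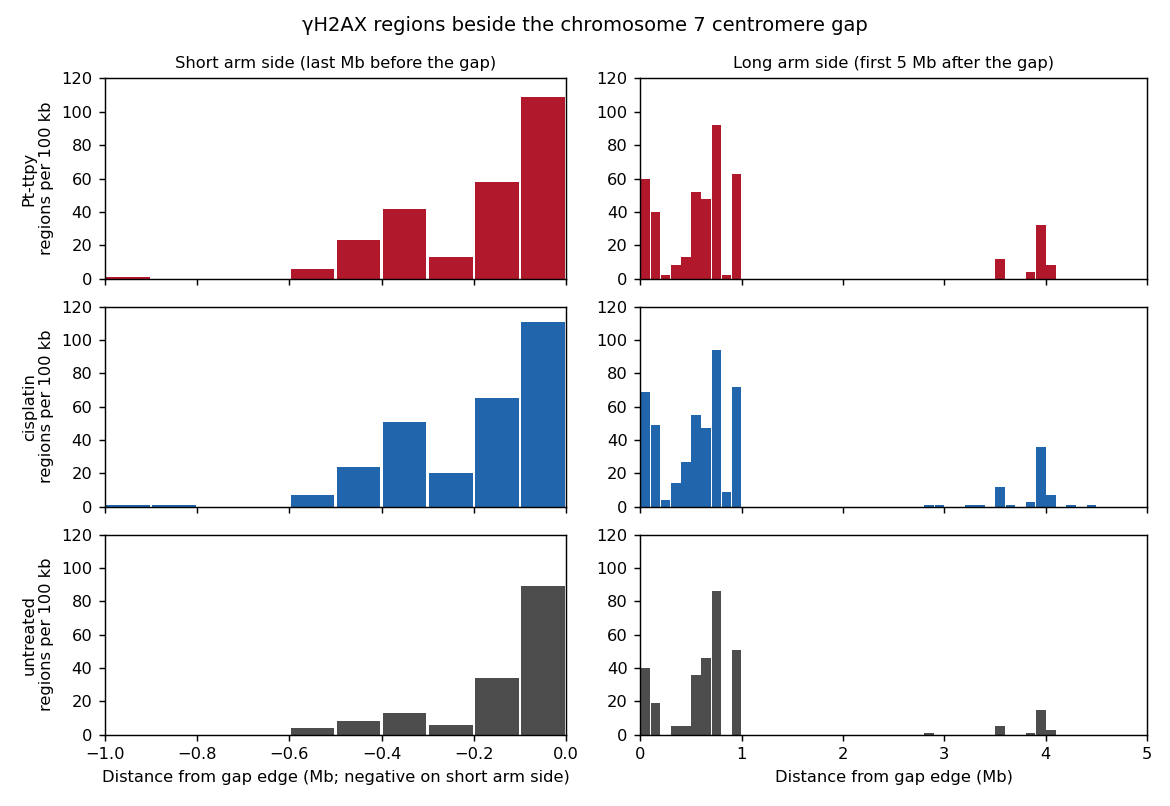
Number of γH2AX regions (vertical axis) in steps of 100 kb from the edge of the centromere gap (horizontal axis, distance in Mb), for the Pt-ttpy, cisplatin and untreated lists from top to bottom, with the short arm side on the left and the long arm side on the right. The first 100 kb on the short arm side held 109 Pt-ttpy, 111 cisplatin and 89 untreated regions, and on the long arm side all 3 lists peaked between 0.7 and 0.8 Mb, with 92, 94 and 86 regions in the same order.

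The flank below 63 Mb held 638 Pt-ttpy, 727 cisplatin and 449 untreated regions. The long arm beyond 63 Mb held 67 Pt-ttpy, 87 cisplatin and 28 untreated regions. The flank thus took 90.5% of the Pt-ttpy regions in the span (95% Wilson interval 88.1 to 92.4), 89.3% of the cisplatin regions (87.0 to 91.3) and 94.1% of the untreated regions (91.6 to 95.9). The intervals cover counting error only, and neighbouring regions are not independent.

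Against the untreated list the flank count was 1.42 times as high for Pt-ttpy and 1.62 times as high for cisplatin, below the ratios of 1.85 and 2.69 over all other regions of chromosomes 1 to 22 and X. With the missing untreated numbers counted in, the flank ratios were between 1.17 and 1.19 for Pt-ttpy and between 1.34 and 1.36 for cisplatin. Counted the same way, all regions outside the span gave 1.00 to 1.01 for Pt-ttpy and 1.45 for cisplatin. The flank ratio of Pt-ttpy was then above that of the other regions, and the cisplatin ratio stayed below with a smaller gap. When each list was limited to its 9709 strongest regions, which makes the totals equal by construction, the flank ratio was 1.15 for both drugs. Both ratios then lay above that of the whole lists, so the side on which the flank lies depends on the setting. Of the untreated numbers, at most 21.0% were missing in the flank, 54.8% to 70.5% beyond 63 Mb and 49.0% over the whole list. Covered length in the flank was 196 kb for Pt-ttpy, 213 kb for cisplatin and 114 kb for untreated cells. Beyond 63 Mb the ratio to untreated was 2.39 for Pt-ttpy and 3.11 for cisplatin. These higher ratios depend on the missing numbers. The 28 untreated regions there stand for 62 to 95 numbers when the missing ones are counted, and the ratios were then 1.08 to 0.705 for Pt-ttpy and 1.40 to 0.916 for cisplatin.

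The excess of treated over untreated regions was uneven along the flanks. These stretches were drawn after their counts were seen. From 57.5 to 57.9 Mb the Pt-ttpy list held 95 and the cisplatin list 117 regions, against 37 in the untreated list. From 57.9 Mb to the gap the counts were 156 for Pt-ttpy and 161 for cisplatin, against 117 for untreated cells. The ratio to untreated was therefore 2.57 for Pt-ttpy and 3.16 for cisplatin in the stretch farther from the gap, and 1.33 and 1.38 in the stretch next to it. With the missing untreated numbers counted, the ratios farther from the gap were 1.42 to 1.44 for Pt-ttpy and 1.75 to 1.77 for cisplatin, and next to it 1.16 and 1.19.

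The long arm side was uneven as well. From the gap to 61.1 Mb there were 42 Pt-ttpy and 48 cisplatin regions against 39 untreated regions, ratios of 1.08 and 1.23. With 48 untreated numbers there, the missing ones included, the ratio was 0.875 for Pt-ttpy, which turns its direction, and 1.00 for cisplatin. From 61.1 to 61.6 Mb there were 93 Pt-ttpy and 127 cisplatin regions against 34 untreated regions, ratios of 2.74 and 3.74. From 61.6 to 62.1 Mb there were 245 Pt-ttpy and 265 cisplatin regions against 215 untreated regions, ratios of 1.14 and 1.23. The share of regions on an untreated region was 29.0% for Pt-ttpy and 23.6% for cisplatin from 61.1 to 61.6 Mb, and 73.5% and 68.3% from 61.6 to 62.1 Mb. The sparser of these stretches also held the weaker calls. The median percentile of −log10 q (the share of a region's own list with a lower value) was 46.6 for Pt-ttpy, 53.1 for cisplatin and 47.0 for untreated regions from 61.1 to 61.6 Mb. From 61.6 to 62.1 Mb it was 79.9, 86.4 and 74.9 in the same order of lists. Missing untreated numbers were 24 in the sparser stretch, beside 33 kept, and 19 to 23 in the denser one, beside 202 kept. With them the ratios were 1.63 for Pt-ttpy and 2.23 for cisplatin in the sparser stretch, and 1.09 to 1.11 and 1.18 to 1.20 in the denser one.

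The median region of each flank ranked above the middle of its list, but only slightly on the short arm side of the untreated list. The median percentile on the long arm side was 74.5 in the Pt-ttpy, 79.2 in the cisplatin and 67.8 in the untreated list. On the short arm side it was 62.9, 72.9 and 52.5. A −log10 q of at least 5 was reached by 538 of the 638 Pt-ttpy regions of the flank (84.3%, with 57.6% over chromosomes 1 to 22 and X). It was reached by 589 of the 727 cisplatin regions (81.0%, with 46.9% over those chromosomes) and by 394 of the 449 untreated regions (87.8%, with 73.9%). Calls below that value were thus a smaller share of the flank than of each whole list. At or above percentile 90 of the list by −log10 q lay 19.7% of the Pt-ttpy, 27.4% of the cisplatin and 14.7% of the untreated regions of the flank, and beyond 63 Mb 1 Pt-ttpy, 4 cisplatin and 0 untreated regions.

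**Figure D2:**
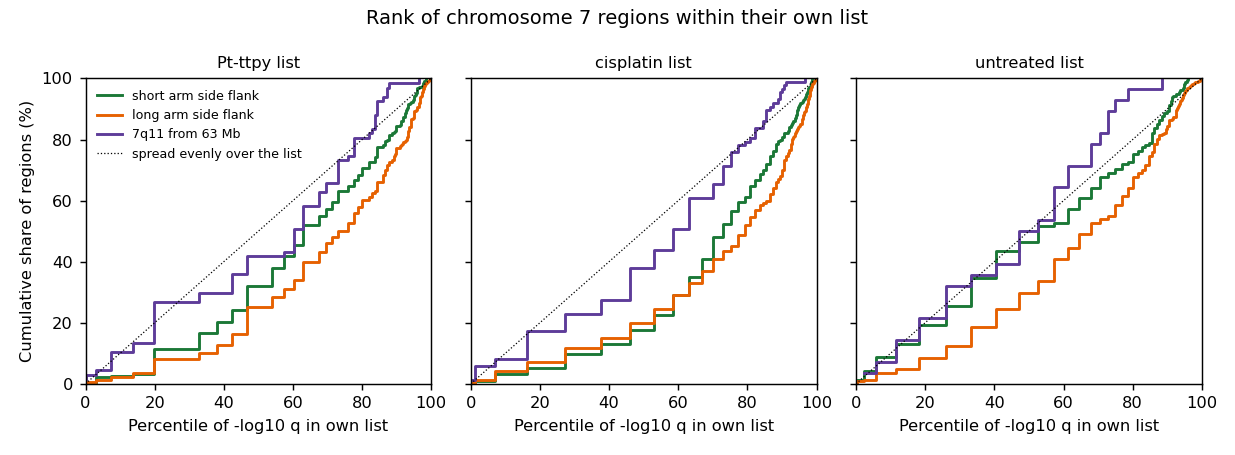
Cumulative share of regions (vertical axis, percent) by the percentile of their −log10 q within their own list (horizontal axis), for the Pt-ttpy, cisplatin and untreated lists from left to right. Curves below the dotted line hold more high-ranking regions than an even spread over the list would. The median percentile of 7q11 lies below those of both flanks in each list, with 60.2 for Pt-ttpy, 58.5 for cisplatin and 49.7 for untreated cells.

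The strongest regions of the span lay on the long arm side and were the same places in all 3 lists. The first by −log10 q ran from 61967167 to 61972171 in the Pt-ttpy list, from 61967166 to 61972167 in the cisplatin list and from 61967167 to 61971951 in the untreated list. Its fold was 26.3 in the Pt-ttpy, 35.1 in the cisplatin and 60.4 in the untreated list. This is the highest fold of each list on chromosomes 1 to 22 and X, and was reached outside the span as well. Its −log10 q is shared with other regions: 36 Pt-ttpy, 27 cisplatin and 18 untreated regions have it, and 1 of them in each list lies in this span. The second ran from 61078919 to 61079915 in the Pt-ttpy list with a fold of 25.4, from 61078895 to 61079925 in the cisplatin list with a fold of 33.8, and from 61078914 to 61079894 in the untreated list with a fold of 55. The ranks that followed were also the same. The region of rank 3 was narrow, with 202 bp for Pt-ttpy, 252 bp for cisplatin and 196 bp for untreated cells, and began at 61794496 in the Pt-ttpy list. The regions of ranks 4 and 5, from 61975993 and from 61083541 in the Pt-ttpy list, met those of the same ranks in the other lists. Among the 100 top regions of each whole list, 2 Pt-ttpy, 3 cisplatin and 3 untreated regions came from the span. On chromosomes 1 to 22 and X the span held 3.96% of the Pt-ttpy, 3.17% of the cisplatin and 4.91% of the untreated regions. It was thus no larger a part of the top 100 than of each list.

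On the short arm side the strongest place stood alone, away from the gap. A group of regions from 56438148 to 56442807, 4.66 kb long, held 3 Pt-ttpy, 3 cisplatin and 4 untreated regions and lay more than 1 Mb from the dense block. Its main region ran from 56441106 to 56442455 with a fold of 18.6 in the Pt-ttpy list and from 56441104 to 56442454 with a fold of 19.9 in the cisplatin list. In the untreated list the same place was called as pieces, the strongest from 56441112 to 56441864 with a fold of 23.8. The neighbouring region was the widest of the short arm side in each list, with 2624 bp for Pt-ttpy, 2654 bp for cisplatin and 2641 bp for untreated cells. Apart from this group, the sequence between 55 Mb and the dense block held 4 Pt-ttpy, 6 cisplatin and 3 untreated regions. One of these places, at 55811991 to 55812142 in the Pt-ttpy list, was called in all 3 lists with folds of 8.05 for Pt-ttpy, 7.96 for cisplatin and 8.42 for untreated cells.

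Most regions were narrow. The median width in the flank was 180 bp for Pt-ttpy (quartiles 130 and 312), 185 bp for cisplatin (127 and 306) and 155 bp for untreated cells (113 and 256). Beyond 63 Mb it was 146 bp for Pt-ttpy, 153 bp for cisplatin and 124 bp for untreated cells. Over chromosomes 1 to 22 and X the medians were 185, 169 and 164 bp in the same order of lists. Widths of 1000 bp or more were reached by 24 Pt-ttpy regions of the span (3.40%, with 5.93% over those chromosomes), 27 cisplatin regions (3.32%, with 4.41%) and 14 untreated regions (2.94%, with 4.67%). All of these wide regions lay in the flank. The widest was a Pt-ttpy region of 5008 bp, from 61783021 to 61788028. The flank medians lay below the fragment size of 200 to 700 bp that the labels give for the sonicated chromatin.

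Nearly every untreated region of the flank was also called in treated cells, about as often as over the whole untreated list. Of the 449, 97.8% overlapped a Pt-ttpy region (95.1% over chromosomes 1 to 22 and X) and 98.0% a cisplatin region (96.1% over those chromosomes) by at least 1 bp. In the other direction 379 of the 638 Pt-ttpy regions, or 59.4%, lay on an untreated region (39.5% over those chromosomes). For cisplatin 384 of the 727 regions, or 52.8%, did so (27.3% over those chromosomes). Beyond 63 Mb the shares were lower: 22 of 67 Pt-ttpy regions (32.8%, Wilson interval 22.8 to 44.7) and 21 of 87 cisplatin regions (24.1%, 16.4 to 34.1). Each interval holds the background share of its comparison. The intervals cover counting error only and neighbouring regions are not independent, so no difference from the background is decided by them. A share on the untreated list depends on how many untreated numbers are missing. That was a smaller part in the flank (at most 21.0%) than over the whole list (49.0%) or beyond 63 Mb (54.8% to 70.5%), and its part in these differences was not tested.

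The lists of both drugs also met often. Of the Pt-ttpy regions in the flank, 86.5% overlapped the cisplatin list (69.9% over chromosomes 1 to 22 and X), and of the cisplatin regions 76.6% overlapped the Pt-ttpy list (47.8%). Beyond 63 Mb these shares were 68.7% for Pt-ttpy and 52.9% for cisplatin. Among regions that lay off the untreated list, 180 of 259 Pt-ttpy regions of the flank (69.5%) met a cisplatin region, and 181 of 343 cisplatin regions (52.8%) met a Pt-ttpy region. Over chromosomes 1 to 22 and X these shares were 51.5% and 29.2%. Both treated lists are read here against 1 untreated list, which they share.

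Regions of the 3 lists that touch were joined into 893 loci, 374 of them in all 3 lists and 197 in both treated lists but not the untreated one. The Pt-ttpy list alone held 98 loci, the cisplatin list alone 202 and the untreated list alone 4. Loci of all 3 lists made up 47.5% on the long arm side of the gap, 41.8% on the short arm side and 18.2% beyond 63 Mb. Loci of the cisplatin list alone made up 21.2%, 19.9% and 36.4% in the same order of places. Over the 30004 loci of chromosomes 1 to 22 and X, 20.9% were in all 3 lists, 16.1% in both treated lists only, 17.4% in the Pt-ttpy list alone and 44.0% in the cisplatin list alone. In the span these shares were 41.9%, 22.1%, 11% and 22.6%. Places that went with the missing untreated numbers could not enter these counts.

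**Figure D3:**
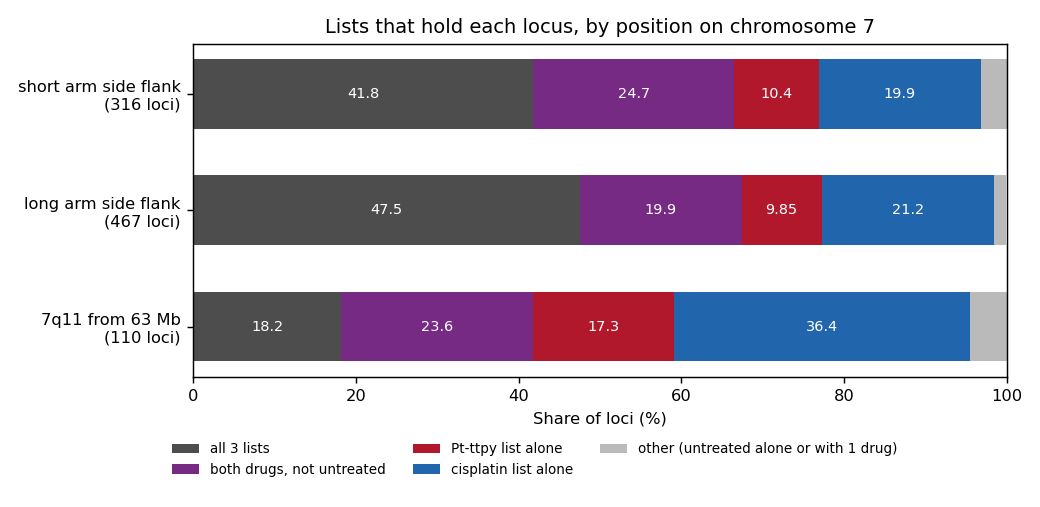
Share of loci (horizontal axis, percent) by the lists that hold them, for the short arm side flank (316 loci), the long arm side flank (467) and 7q11 from 63 Mb (110). A locus is a set of touching regions of any list. Loci of all 3 lists (dark grey) make up 18.2% in 7q11, against 41.8% on the short arm side and 47.5% on the long arm side.

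Where all lists had exactly 1 region at a locus, which was the case at 305 loci, the calls lay almost on top of each other. The summits of the Pt-ttpy and untreated regions differed by a median of 16 bp, the summits of cisplatin and untreated by 17 bp, and the summits of both drugs by 10.0 bp. Pt-ttpy regions were wider than their untreated match at 272 of the 305 loci, by a median of 28.0 bp over all 305. Cisplatin regions were wider than theirs at 280, by a median of 36.0 bp. Pt-ttpy regions were wider than their cisplatin match at 125 loci and narrower at 174, with a median difference of -3.00 bp. The lowest fold called was 2.62 in the Pt-ttpy, 2.60 in the cisplatin and 3.01 in the untreated list, and the part of that limit in the widths was not tested. In the span 55 of the 477 untreated regions were under 100 bp (1382 of 10090 over the whole list), while no treated region was narrower than 101 bp. Of the untreated regions of the span 39 were pieces of 19 numbers, and 47 had a summit outside their bounds. The whole list had 1652 pieces and 2170 such summits. The part of these in the widths was not tested either. Over all 374 loci of the 3 lists, more than 1 region was called at 23 loci in the Pt-ttpy, 25 in the cisplatin and 59 in the untreated list. The untreated calls were thus the most divided, with up to 8 regions at a locus. Some of these regions may be pieces of 1 number, which was not counted by locus. The summit distances, the width differences at matched loci and the divided loci were not taken over the whole lists.

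Treated regions off the untreated list were weaker and narrower in the flanks, as they were over the whole lists. In the flank their median fold was 4.04 for Pt-ttpy, against 6.62 for Pt-ttpy regions on the untreated list. For cisplatin it was 3.98, against 7.10. Their median width was 140 bp for Pt-ttpy and 142 bp for cisplatin, against 246 bp and 252 bp for the regions on the untreated list. Over chromosomes 1 to 22 and X the median folds off and on the untreated list were 3.39 and 5.72 for Pt-ttpy and 3.29 and 6.06 for cisplatin, and the median widths 150 and 339 bp and 148 and 357 bp. The nearest untreated region was within 1 kb for 62 of 115 such Pt-ttpy regions on the short arm side and 72 of 144 on the long arm side. For cisplatin it was within 1 kb for 68 of 144 and 85 of 199. Beyond 63 Mb this held for 10 of 45 Pt-ttpy and 15 of 66 cisplatin regions. As shares these are 53.9% and 50.0% of Pt-ttpy and 47.2% and 42.7% of cisplatin regions in the flanks, and 22.2% and 22.7% beyond 63 Mb, where all such regions of chromosomes 1 to 22 and X gave 30.7% for Pt-ttpy and 19.5% for cisplatin.

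Beyond 63 Mb, band 7q11.21 held most regions: 56 of 67 for Pt-ttpy, 65 of 87 for cisplatin and 25 of 28 for untreated cells. They fell mainly into a pair of clusters. The first ran from 64567150 to 64608027, with 12 Pt-ttpy, 12 cisplatin and 5 untreated regions. The second ran from 64873054 to 65120415, with 44 Pt-ttpy, 46 cisplatin and 19 untreated regions. The counts of the drugs were close to equal in both clusters. With the missing ones included, the untreated numbers came to 10 to 15 in the first cluster, which spans the 12 regions of each drug, and to 30 to 37 in the second, below the count of either drug.

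The strongest region of 7q11 beyond 63 Mb was in the second cluster in all 3 lists. It ran from 64960487 to 64961331 in the Pt-ttpy list, with a fold of 11.5 at percentile 96.3, and from 64960477 to 64961345 in the cisplatin list, with a fold of 11.4 at percentile 96.7. In the untreated list it was called from 64961108 to 64961315, with a fold of 11.7 at percentile 88.4, and again from 64960495 to 64960865, with a fold of 7.82. The next in both treated lists ran from 65054929 to 65055292 in the Pt-ttpy list, where its fold was 7.27, and from 65054924 to 65055299 in the cisplatin list, where it was 7.44. Another strong Pt-ttpy region, from 64955759 to 64955916 with a fold of 7.01, met a cisplatin but no untreated region. The median percentile of the regions beyond 63 Mb was 60.2 for Pt-ttpy, 58.5 for cisplatin and 49.7 for untreated cells, below that of the flank in each list (69.6, 77.3 and 64.6).

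Band 7q11.23 held few regions, and its duplicated blocks were not placed here. From the start of that band to 77 Mb there were 7 Pt-ttpy, 14 cisplatin and 1 untreated regions, in a part of the span where up to 34 missing untreated numbers may fall. Band 7q11.22 held 4 Pt-ttpy, 8 cisplatin and 2 untreated regions, and none of the Pt-ttpy and cisplatin regions there overlapped an untreated one. With so few regions the intervals of these shares reach 49.0% for Pt-ttpy and 32.4% for cisplatin and hold the whole-list shares of 39.5% and 27.3%, and 5 to 13 untreated numbers are missing in the band. The untreated regions of 7q11.22, at 67909091 to 67909196 with a fold of 5.11 and at 71145144 to 71145243 with a fold of 7.82, lay off both treated lists. One place in 7q11.23 was called in all 3 lists. It ran from 75927430 to 75927548 with a fold of 6.62 in the Pt-ttpy list, from 75927424 to 75927545 with a fold of 6.23 in the cisplatin list and from 75927448 to 75927549 with a fold of 5.71 in the untreated list. Both treated lists also called 74712251 to 74712351, as bounded in the Pt-ttpy list, with folds of 4.30 for Pt-ttpy and 4.15 for cisplatin.

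The window from 72 to 73 Mb held 3 Pt-ttpy and 13 cisplatin regions and no untreated region. It was the 1 window of 1 Mb in the span where a list had at least 5 regions and another had none. Of the cisplatin regions, 8 lay between 72870550 and 72934095, where the Pt-ttpy list had 1. All 8 were off the other lists, with folds between 2.77 and 4.15 in a list whose lowest fold is 2.60, and 1 of them reached a −log10 q of at least 5. The 1 Pt-ttpy region there, from 72926768 to 72926868, was at the lowest −log10 q of its list among chromosomes 1 to 22 and X. Most calls of this group were therefore among the weaker ones of the cisplatin list.

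Between the drugs, the flank held 0.878 Pt-ttpy regions per cisplatin region and the long arm beyond 63 Mb held 0.770, where all other regions of chromosomes 1 to 22 and X gave 0.687. When each list was limited to its 9709 strongest regions, the flank held 516 Pt-ttpy and 517 cisplatin regions, and 7q11 held 44 and 43, a ratio of 1.02 in 7q11. With a −log10 q of at least 5 in both lists the cisplatin counts were still higher, with ratios of 0.913 in the flank (538 Pt-ttpy and 589 cisplatin regions) and 0.870 in 7q11 (47 and 54). Over chromosomes 1 to 22 and X the cisplatin list was also the longer one at that value, with 12034 regions against 10248 for Pt-ttpy. The lists of 9709 regions are equal in number by construction. Whether 1 drug has more of the stronger calls here thus follows how these are chosen, and is to be read beside those list totals. Drug and calling depth cannot be told apart here, since each drug has a single list.

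To place chromosome 7 among chromosomes, the sequence within 5 Mb of the centromere gap was set beside that of 17 other chromosomes (all but the acrocentric ones). There chromosome 7 held 707 Pt-ttpy, 808 cisplatin and 477 untreated regions, rank 5 of the 18 chromosomes in each list, where the medians of the others were 265, 300 and 183. Its ratios were in the middle of the others: 1.48 for Pt-ttpy over untreated, where the median of the others was 1.49, and 1.69 for cisplatin over untreated, where it was 1.69. Pt-ttpy over cisplatin was 0.875, where the median of the others was 0.876 and their range 0.684 to 1.00. Most overlap shares were also near the middle. On chromosome 7, 57% of Pt-ttpy and 50.4% of cisplatin regions lay on an untreated region, where the medians of the others were 52.6% and 47.6%, and 7 of the 17 were higher in each case. The share of cisplatin regions on a Pt-ttpy region was 75.6%, where the median of the others was 71.6% and 4 of the 17 were higher. Of the other 3 shares, each had 6 or 7 chromosomes above it. Chromosome 7 was thus among the fuller centromere flanks by count and near the middle of them by its ratios between lists, a description without a test.

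**Figure D4:**
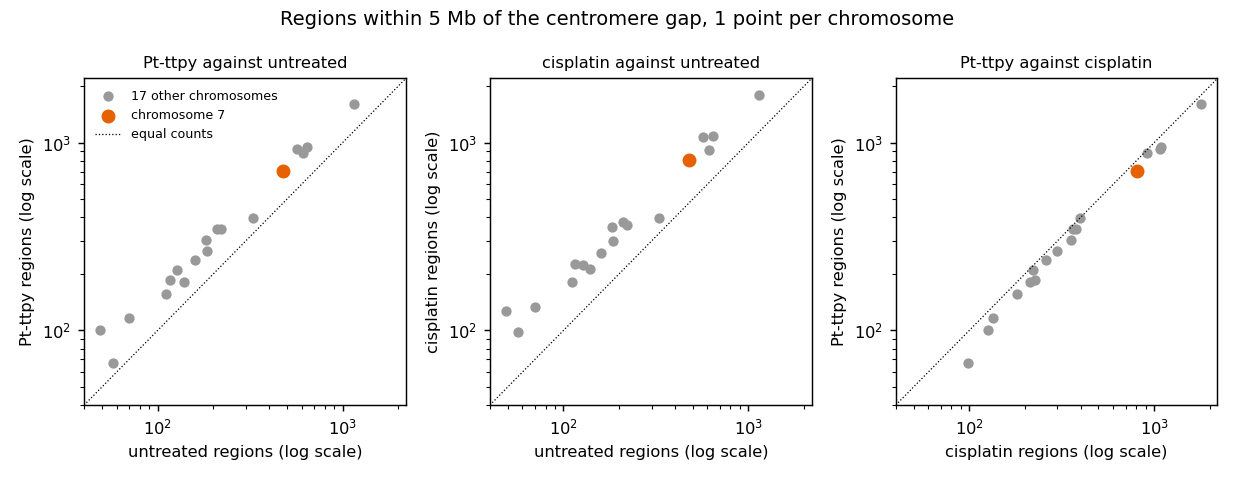
Number of regions within 5 Mb of the centromere gap, 1 point per chromosome on log axes, for Pt-ttpy against untreated, cisplatin against untreated and Pt-ttpy against cisplatin, with the dotted line at equal counts. Chromosome 7 (orange; 707 Pt-ttpy, 808 cisplatin and 477 untreated regions) lies within the run of the 17 other chromosomes (grey) in each panel. On chromosomes 1, 9 and 16 the gap includes the heterochromatin gap next to it.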

How the data were processed

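The data were 3 peak lists in narrowPeak form, 1 per group. BWA 0.7.5, MACS2 2.1.0 and build hg19 come from the submitters' processing notes. Not given in the sources used here are the calling settings, the control and how the 2 samples per list were combined. For each region the authors deposited a fold ratio, p- and q-values on the −log10 scale, a score derived from the −log10 q, and a summit offset. The authors' values were used only within a list, and p-values and scores entered no result.

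Regions were placed by their midpoint, and coordinates are 1-based. Overlap was at least 1 bp. Whole-list values used chromosomes 1 to 22 and X. Centromere gaps and bands were entered from general knowledge of hg19, and 0 regions lay inside the checked gaps. Missing untreated numbers were placed between retained neighbours. Named regions were the 5 highest by −log10 q and the widest in each flank and in 7q11; named windows were the fullest and those empty in 1 list. Blocks, stretches and other places were chosen after their values were seen. The span, the bounds and the measures were chosen with earlier results of these data known. No test between groups was possible. The counting code was tested on simulated data. The software was Python 3.11.15 with matplotlib 3.10.9 for figures, scipy 1.17.1 for intervals, and pandas 2.3.3 on numpy 2.4.6 for tables.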

Additional observations from a re-analysis of the deposited data

How the results depend on the processing

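No paired analysis was possible because both samples of a group are tied to 1 list, and for the same reason no replicate could be left out. Of 183 recomputed values, 120 stayed within their counting error, or within 1.5 times for a count, 60 moved beyond it and 3 changed direction; unless a cause is given, the cause was not tested. Merging regions within 1 kb gave 207 Pt-ttpy, 230 cisplatin and 162 untreated regions in the flank, with median widths of 395, 430 and 276 bp, and 40 Pt-ttpy and 52 cisplatin regions beyond 63 Mb. The cisplatin ratio to untreated in the flank was then 1.42.

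With equal numbers of top regions the flank ratios to untreated were 1.15 for Pt-ttpy and 1.15 for cisplatin, and Pt-ttpy to cisplatin was 0.998. Beyond 63 Mb there were 44 Pt-ttpy and 43 cisplatin regions, so that Pt-ttpy to cisplatin changed direction to 1.02, and cisplatin to untreated was 1.54. The shares on untreated regions were 70.5% of Pt-ttpy and 70.4% of cisplatin regions in the flank, and 50.0% and 46.5% beyond 63 Mb. The shares of cisplatin on Pt-ttpy regions were 87.4% and 79.1%, and those of untreated flank regions on Pt-ttpy and cisplatin regions 94.4% and 93.8%.

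With missing untreated numbers, 7q11 held 62 to 95 untreated numbers. The ratios beyond 63 Mb were 1.08 to 0.705 for Pt-ttpy and 1.40 to 0.916 for cisplatin, and those of the flank 1.19 to 1.17 and 1.36 to 1.34. The upper bound turns the direction beyond 63 Mb for both drugs. By construction it counts every missing number next to a bound as inside. The same count for stretches and for the whole list was added after the data were seen, and turned Pt-ttpy to 0.875 from the gap to 61.1 Mb.

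With a −log10 q of at least 5, 7q11 held 54 cisplatin regions, 80.9% of Pt-ttpy regions there lay on cisplatin and 70.4% of cisplatin on Pt-ttpy regions, while in the flank 81.2% of cisplatin regions lay on Pt-ttpy and 57% on untreated regions, with a cisplatin median width of 202 bp. Asking for overlap of 50% of the length gave flank shares of 83.2% for Pt-ttpy on cisplatin, 48.7% for Pt-ttpy on untreated, 73.0% for cisplatin on Pt-ttpy and 44.2% for cisplatin on untreated. Midpoints gave 82.1%, 49.7%, 72.4% and 44.2%. Untreated flank regions of 100 bp or more had a median width of 168 bp.

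A bound at 62 Mb put 101 Pt-ttpy and 54 untreated regions in 7q11, with 46.5% of Pt-ttpy and 35.2% of cisplatin regions on untreated ones. A bound at 65 Mb, which parts the second 7q11.21 cluster, left 32 Pt-ttpy, 45 cisplatin and 8 untreated regions, ratios to untreated of 4.00 and 5.62, 56.2% of Pt-ttpy on cisplatin, 40.0% of cisplatin on Pt-ttpy, and 15.6% of Pt-ttpy and 11% of cisplatin on untreated regions. Joining within 50 kb, added after the data were seen, gave 15 blocks. Depth is unknown, so a place without a call is not shown to lack γH2AX.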
